A study of Mus musculus with 12 samples.

Results

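The 44 genes described here make up the core of mammalian DNA replication and of the entry into S phase, the stretch of the cell cycle in which the genome is copied. They were taken by gene symbol from a list of replication genes and are 44 of the 24532 genes in the deposited table. The rule itself uses no measured value, but it was chosen with earlier results of these data known. All 44 had enough counts to be tested, in a set of 16466 tested genes. Expression was measured by bulk RNA sequencing of ear skin in 12 libraries, 3 in each of 4 groups. Specific-pathogen-free (SPF) mice, which carry a microbiota without listed pathogens, gave the SPF groups, and germ-free (GF) mice, raised without microbes, gave the GF groups. In each housing 1 group received ethanol, the vehicle, and 1 group received MC903 (calcipotriol, a vitamin D analogue that inflames mouse skin in a way used to model atopic dermatitis), with 5 applications counted in the labels and their spacing unclear. The animals carry no named mutation, and the strain label reads C57BL/6 in 9 libraries. It ends in 7, 8 and 9 in place of 6 in GF MC903 4, GF ethanol 5 and GF MC903 5. SPF libraries are numbered 1, 2 and 3 and GF libraries 1, 4 and 5, the order in which values are given below. The labels used here name neither age nor sex. They also do not state that each library is a mouse of its own, so the p-values describe spread among libraries that may be technical.

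Copying a genome starts with origin licensing: the origin recognition complex, CDC6 and CDT1 load the ring-shaped MCM2-7 helicase onto DNA in G1. Cyclin E with CDK2, and the kinase DBF4-CDC7, then switch on the helicase together with CDC45 and GINS, and DNA polymerases alpha, delta and epsilon copy the strands with the help of the sliding clamp PCNA, its loader RFC and the single-strand binding protein RPA. Many of these genes are known targets of E2F transcription factors, which are held back by the retinoblastoma proteins until the cell commits to division. In skin, cycling cells are found mainly in the basal layer of the epidermis and in growing hair follicles, and in inflamed skin also among immune and stromal cells.

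The promoters are shown first because E2F letters are the sequence feature these genes are best known to share. RefSeq promoters (GRCm38.p6, the same build as mm10) were found for 36 of the 44 members, and the 250 bases before each start were searched on both strands for TTTCCCGC, TTTCGCGC, TTTGCCGC and TTTGGCGC. At least 1 match was present in 9 of 36 members (25.0%), in 583 of 27025 genes of the promoter table (2.16%) and in 1 of 21 mitosis genes (4.76%). The letters CCAAT were in 61.1% of member promoters, 37.5% of all and 90.5% of those of mitosis genes. The cell cycle homology letters TTTGAA or TTTAAA were in 22.2%, 28.1% and 61.9%. Median G and C content per gene was 59.6%, 52.4% and 61.6% in the same order, and its part in these shares was not tested. The 9 promoters with a match are given below 5′ to 3′ on the strand of the gene, with the matched letters in capitals. The whole window is given for Mcm5, at chr8:75109259-75109508 on the plus strand, and for Pola1, at chrX:93632156-93632405 on the minus strand, which had the largest and the smallest mean response of the 9. The others show the match with up to 20 bases on each side. Starts are those of the table, which lists more than 1 for some genes, and those of Mcm5, Mcm7 and Uhrf1 lie inside the full span of the gene given further on. In Mcm5 and at the first site of Mcm6, 2 matches on opposite strands overlap and form a run of 12 capitals. No match overlaps a CCAAT or homology match.
Mcm5: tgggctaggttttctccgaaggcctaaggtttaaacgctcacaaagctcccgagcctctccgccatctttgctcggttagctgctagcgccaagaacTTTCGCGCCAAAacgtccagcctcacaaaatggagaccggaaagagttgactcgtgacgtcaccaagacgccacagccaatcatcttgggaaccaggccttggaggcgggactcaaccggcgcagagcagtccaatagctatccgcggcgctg
Pola1: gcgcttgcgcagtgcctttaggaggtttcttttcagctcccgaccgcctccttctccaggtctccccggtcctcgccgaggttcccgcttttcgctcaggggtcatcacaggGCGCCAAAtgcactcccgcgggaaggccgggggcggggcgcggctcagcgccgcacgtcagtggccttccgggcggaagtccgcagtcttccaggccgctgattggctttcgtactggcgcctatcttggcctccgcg
Cdc6: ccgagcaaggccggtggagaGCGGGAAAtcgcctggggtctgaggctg
Gins3: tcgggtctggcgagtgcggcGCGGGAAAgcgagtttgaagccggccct
Mcm6: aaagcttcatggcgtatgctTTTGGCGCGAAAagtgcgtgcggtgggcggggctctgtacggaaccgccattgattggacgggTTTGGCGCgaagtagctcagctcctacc
Mcm7: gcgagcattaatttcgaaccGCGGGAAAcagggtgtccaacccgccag
Orc1: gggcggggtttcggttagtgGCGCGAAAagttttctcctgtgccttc
Rfc3: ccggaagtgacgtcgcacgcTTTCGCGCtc
Uhrf1: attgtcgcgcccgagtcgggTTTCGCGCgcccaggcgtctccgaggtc
The windows for Cdc6, Gins3, Orc1 and Uhrf1 are on the plus strand at chr11:98907993-98908040, chr8:95633498-95633545, chr4:108579407-108579453 and chr17:56304108-56304155. Those for Mcm6, Mcm7 and Rfc3 are on the minus strand at chr1:128359725-128359835, chr5:138172021-138172068 and chr5:151651209-151651238. The mean of the SPF and GF log2 responses to MC903 ran from -0.07 to 1.90 (median 0.89) in the 9 members with these letters and from -0.21 to 1.99 (median 0.83) in the 27 without. A match is a string of letters, not a measured binding site.

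Libraries held 36358294 to 48225425 estimated counts. Expression is given as CPM, counts per 1e6 counts, on TMM-scaled library sizes, where TMM is edgeR's correction for libraries whose composition differs, and changes are log2 differences between groups. The scaling matters here, since mean TMM factors were 1.23 and 1.19 with ethanol and 0.825 and 0.831 with MC903, in SPF and GF skin. The median tested gene changed by -0.10 in SPF and -0.07 in GF skin with TMM, and scaling by library totals alone moved it by a further -0.58 and -0.51. The tissue label fits the keratinocyte markers, all of which were present: 7 basal markers (Krt5, Krt14, Krt15 and others) summed to 11434 to 12046 CPM in SPF ethanol, 28921 to 32936 in SPF MC903, 13349 to 15189.7 in GF ethanol and 30878 to 31185 in GF MC903 libraries. These sums hide a split list. By the test given below, 3 basal markers rose and 3 fell with MC903 in SPF skin, and 2 rose and 2 fell in GF skin. On library totals Krt14 changed by 1.93 in SPF and 1.39 in GF skin, and Krt15 by -1.78 and -1.03. The 6 suprabasal markers summed to 18673 to 20547 CPM in SPF ethanol, 26151 to 33773 in SPF MC903, 20267 to 23421 in GF ethanol and 37726 to 41327 in GF MC903 libraries. Of these, 4 rose and 2 fell with MC903 in SPF skin, and 5 rose and 1 fell in GF skin. Of 10 hair matrix and growing follicle markers (called hair matrix markers below), the sums were 78.7 to 84.2 CPM in SPF ethanol, 2405 to 3878 in SPF MC903, 95.1 to 102 in GF ethanol and 1226 to 1249 in GF MC903 libraries. Most of the sum was Tchh in the MC903 groups but not with ethanol, and Shh was at 0 in both MC903 groups. Such a sum does not measure dividing cells. The 7 macrophage markers summed to 264 to 319 CPM in SPF ethanol, 413 to 498 in SPF MC903, 337 to 366 in GF ethanol and 469.5 to 542 in GF MC903 libraries. The 7 T cell markers summed to 34.1 to 37.2 CPM in SPF ethanol, 13.6 to 15.3 in SPF MC903, 34.3 to 35.5 in GF ethanol and 25.1 to 29.0 in GF MC903 libraries, with Cd8a at 0 in SPF ethanol. Neutrophil sums were 5.11 to 6.80 CPM in SPF ethanol, 11.3 to 13.7 in SPF MC903, 3.95 to 7.05 in GF ethanol and 16.2 to 19.5 in GF MC903 libraries, with Ly6g at 0 in all groups but GF MC903. The 5 fibroblast markers summed to 7349.5 to 8523 CPM in SPF ethanol, 3794 to 4817 in SPF MC903, 6269.7 to 7469 in GF ethanol and 3739 to 4902 in GF MC903 libraries. The 5 sebocyte markers summed to 6948 to 7141 CPM in SPF ethanol, 1836 to 2234 in SPF MC903, 4930.4 to 5591 in GF ethanol and 2280.4 to 2675 in GF MC903 libraries, and the 5 skeletal muscle markers to 1325 to 1572 CPM in SPF ethanol, 701 to 724 in SPF MC903, 1689 to 1895 in GF ethanol and 991 to 1011 in GF MC903 libraries. Other lists were split too. Of the sebocyte markers 1 rose and 3 fell in SPF skin, and 2 rose and 3 fell in GF skin. Hair matrix markers had 5 rises and 1 fall in each housing. Macrophage markers had 6 rises and 1 fall in SPF skin, and 5 and 1 in GF skin. Of the neutrophil markers 2 rose and 1 fell in SPF skin, and 4 rose in GF skin. Of 6 T cell markers tested, 6 fell in SPF and 2 in GF skin. All fibroblast and muscle markers fell in both. The part of these shifts in the results below was not tested, and in bulk skin more cells of a dividing type cannot be told apart from more RNA per cell.

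Most replication genes were higher after MC903 in both housings. In SPF skin 34 of the 44 rose, 1 fell and 9 did not pass the test (edgeR's quasi-likelihood test, Benjamini-Hochberg adjustment over all tested genes at 0.05), with a median log2 change of 0.67. Over all tested genes 35% rose and 38.8% fell. In GF skin 38 rose, none fell and 6 missed the threshold, the median being 0.82, where 33.4% of all tested genes rose and 35.1% fell. At least 2-fold rises were called for 11 members in SPF skin (background 15.6%) and 17 in GF skin (background 12.2%). The same 33 members rose in both, 97.1% of the SPF list and 86.8% of the GF list, against 29.5% of all tested genes. Gins3 passed only the SPF test, and Pola2, Pold1, Pole, Rfc3 and E2f1 passed only the GF test. Pola1, Rfc1, Rpa1 and Ccne2 passed neither, and Gins2 fell in SPF skin. Every MC903 library was above every ethanol library for 35 members in SPF skin (background 35.8%) and below it for 2 (40.9%). In GF skin this held for 38 above (35.6%) and 1 below (38.4%). The summed level of the 44 genes was 1002 to 1142 CPM in SPF ethanol, 1718 to 1940 CPM in SPF MC903, 1076 to 1206 CPM in GF ethanol and 2033 to 2148 CPM in GF MC903 libraries.

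These counts rest on the TMM scaling. On library totals alone 18 members rose and 10 fell in SPF skin (median 0.10), and 25 rose and 4 fell in GF skin (median 0.31), while over all tested genes 3127 rose and 10106 fell in SPF and 2795 rose and 9697 fell in GF skin. Of the rises called above, 9 in SPF skin (Orc6, Mcm4, Mcm6, Gins4, Prim1, Prim2, Rfc4, Rpa2 and Chaf1b) and 4 in GF skin (Prim1, Pold1, Pole and Rfc5) had the opposite sign on library totals. The position of the members above the median gene does not depend on that choice, since it moves all genes alike. Under every alternative setting tried, 18 members still rose in SPF skin (Orc1, Cdc6, Cdt1, Mcm2, Mcm3, Mcm5, Mcm7, Cdc45, Gins1, Pold2, Pcna, Fen1, Rrm1, Rrm2, Tyms, Tk1, Chaf1a and Ccne1) and 24 in GF skin.

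**Figure D1:**
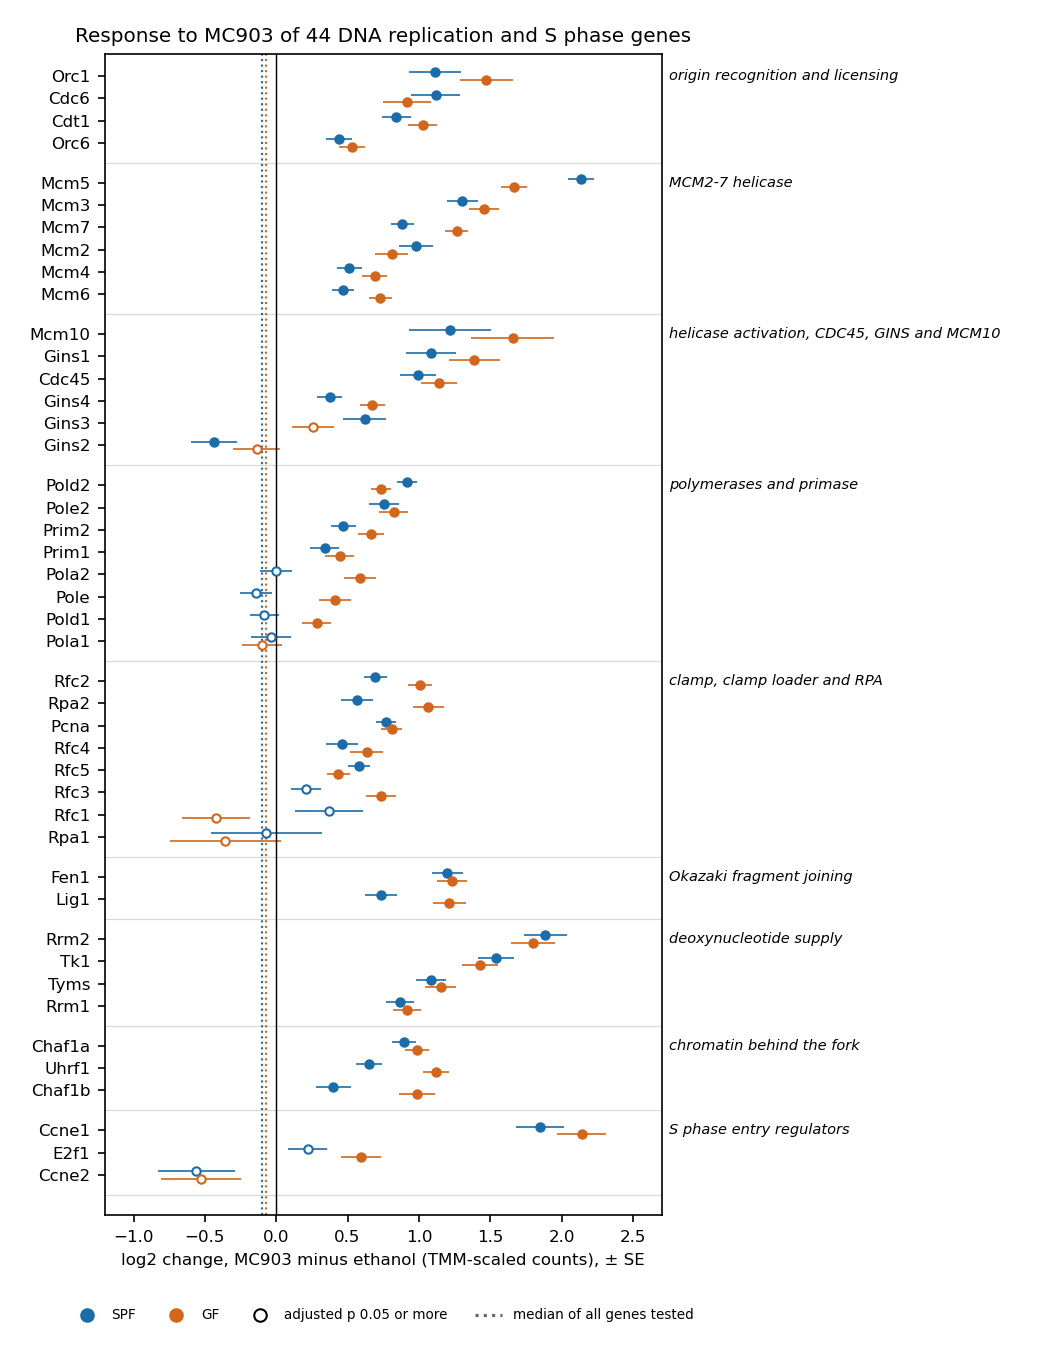
Log2 change with MC903 against ethanol (horizontal axis, TMM-scaled counts, bars ± SE) of the 44 members by role, in SPF (blue) and GF (orange) skin; filled points passed the test, open points did not, and dotted lines mark the median of all tested genes (-0.10 and -0.07). Most points lie to the right of these lines, with Mcm5, Rrm2 and Ccne1 farthest; on library totals alone the points would move left by 0.58 (SPF) and 0.51 (GF), which turns the sign of 9 called SPF rises and 4 called GF rises.

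Among the regulators of S phase entry, cyclin E1 rose and cyclin E2 did not. Ccne1 (chr7:38097984-38107490), which encodes the cyclin that activates CDK2 at the G1 to S transition, was at 4.44, 3.32 and 4.19 CPM with ethanol and 14.5, 15.7 and 12.9 CPM with MC903 in SPF skin. GF skin had Ccne1 at 3.09, 4.31 and 3.09 CPM with ethanol and 14.2, 13.6 and 18.4 CPM with MC903. The groups stood clear of each other in both housings, a 3.6-fold rise in SPF and a 4.41-fold rise in GF skin, with log2 changes of 1.85 (SE 0.17, adjusted p = 6.7e-07) in SPF and 2.14 (SE 0.17, adjusted p = 3.5e-07) in GF skin. Ccne2, its close relative with the same partner, was at 4.62, 3.40 and 3.39 CPM with ethanol and 2.67, 2.16 and 2.93 CPM with MC903 in SPF skin. Ccne2 in GF skin was at 2.47, 1.69 and 2.90 CPM with ethanol and 2.36, 1.39 and 1.15 CPM with MC903. Its levels were low throughout, below the ethanol range with MC903 in SPF skin and overlapping in GF skin, and its changes of -0.56 (SE 0.27, adjusted p = 0.077) in SPF and -0.53 (SE 0.28, adjusted p = 0.11) in GF skin did not pass. Without GF MC903 1 both passed, at -0.56 (adjusted p = 0.041) in SPF and -0.89 (adjusted p = 0.014) in GF skin, and on library totals Ccne2 was lower in both, by -1.14 (adjusted p = 0.0024) and -1.04 (adjusted p = 0.0060). E2f1, an activating E2F, was at 21.4, 15.4 and 19.4 CPM with ethanol and 24.2, 23.1 and 18.2 CPM with MC903 in SPF skin. GF skin had E2f1 at 19.7, 22.2 and 17.7 CPM with ethanol and 30.9, 27.5 and 31.6 CPM with MC903. The SPF groups overlapped and the GF groups did not, with changes of 0.22 (SE 0.14, adjusted p = 0.17) in SPF and 0.59 (SE 0.14, adjusted p = 0.0020) in GF skin. Without SPF MC903 3 the SPF change passed, at 0.33 (adjusted p = 0.044). On library totals E2f1 was lower in SPF skin, at -0.36 (adjusted p = 0.031), and the GF rise was lost, at 0.08 (adjusted p = 0.59). Where the deposited FPKM values allow the cyclins to be compared per length, mean FPKM with MC903 was 5.91 for Ccne1 and 0.680 for Ccne2 in SPF skin, against 2.45 and 1.48 with ethanol. In GF skin the means were 6.38 and 0.426 with MC903, against 2.06 and 0.891 with ethanol. The exons of Ccne2 share 17.4% of their length with Ints8 on the other strand, and whether strand was used in counting is not stated.

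All 4 licensing genes rose in both housings with TMM scaling, whereas on library totals 3 rose and 0 fell in SPF skin and 2 rose and 0 fell in GF skin. Cdt1, which brings MCM2-7 to the origin, was at 21.6, 18.8 and 21.5 CPM with ethanol and 38.6, 40.6 and 31.6 CPM with MC903 in SPF skin. Cdt1 in GF skin was at 21.2, 21.5 and 21.2 CPM with ethanol and 45.5, 38.6 and 45.8 CPM with MC903. No ethanol library reached an MC903 library, and the changes were 0.84 (SE 0.10, adjusted p = 8.9e-06) in SPF and 1.03 (SE 0.10, adjusted p = 2.3e-06) in GF skin. Orc1, the largest subunit of the origin recognition complex, was at 3.36, 3.40 and 3.37 CPM with ethanol and 8.96, 6.74 and 6.22 CPM with MC903 in SPF skin. GF skin had Orc1 at 2.35, 2.01 and 2.48 CPM with ethanol and 6.44, 4.86 and 7.68 CPM with MC903. It was low but rose 2.16-fold in SPF and 2.78-fold in GF skin, with changes of 1.11 (SE 0.18, adjusted p = 0.00011) in SPF and 1.47 (SE 0.19, adjusted p = 1.7e-05) in GF skin. Its GF ethanol libraries were all below the SPF ethanol libraries, a difference of -0.57 (SE 0.19, adjusted p = 0.047) that passed in 4 of the 12 fits that left out 1 library each. Orc6, the small subunit, had the weakest rise of the group, at 23.6, 22.5 and 19.5 CPM with ethanol and 30.5, 30.4 and 28.1 CPM with MC903 in SPF skin. Orc6 in GF skin was at 22.5, 23.8 and 21.1 CPM with ethanol and 35.1, 29.6 and 32.7 CPM with MC903. Groups did not overlap, and the changes were 0.44 (SE 0.09, adjusted p = 0.00073) in SPF and 0.53 (SE 0.09, adjusted p = 0.00020) in GF skin, both lost on library totals, at -0.13 (adjusted p = 0.18) and 0.02 (adjusted p = 0.83). Cdc6, the ATPase that works with ORC, changed by 1.12 in SPF and 0.92 in GF skin and passed in both, the GF change narrowly missing the threshold on library totals at 0.41 (adjusted p = 0.051).

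The MCM2-7 genes all rose, by unequal amounts, while on library totals 4 rose and 0 fell in SPF skin and 5 rose and 0 fell in GF skin. Mcm5 (chr8:75109468-75128439) had the largest SPF change of the 44 members, at 41.7, 34.8 and 43.6 CPM with ethanol and 175, 180.5 and 173 CPM with MC903 in SPF skin. GF skin had Mcm5 at 45.1, 49.6 and 45.0 CPM with ethanol and 151, 134 and 159 CPM with MC903. With MC903 the SPF libraries were the highest and the GF libraries the next, with no overlap between any of these groups, and the changes were 2.14 (SE 0.09, adjusted p = 1.0e-09) in SPF and 1.67 (SE 0.09, adjusted p = 1.9e-08) in GF skin, or 4.40-fold and 3.17-fold. Mcm7 (chr5:138164583-138172111) was higher in GF than in SPF skin after MC903, at 47.0, 47.7 and 47.2 CPM with ethanol and 90.9, 93.8 and 77.0 CPM with MC903 in SPF skin. Mcm7 in GF skin was at 49.0, 52.2 and 49.1 CPM with ethanol and 128, 111 and 122 CPM with MC903. Its GF MC903 libraries lay above all SPF MC903 libraries, and its changes were 0.88 (SE 0.08, adjusted p = 5.5e-07) in SPF and 1.26 (SE 0.08, adjusted p = 5.4e-08) in GF skin. Mcm6, the member with the highest mean CPM among the MCM genes after Mcm5 and with the smallest mean response, was at 64.5, 56.5 and 68.1 CPM with ethanol and 93.8, 85.8 and 82.0 CPM with MC903 in SPF skin. GF skin had Mcm6 at 68.3, 69.1 and 64.3 CPM with ethanol and 114, 104 and 116 CPM with MC903. Groups again did not overlap, with changes of 0.47 (SE 0.08, adjusted p = 0.00016) in SPF and 0.73 (SE 0.08, adjusted p = 4.8e-06) in GF skin, and the SPF change was -0.11 (adjusted p = 0.25) on library totals. Mcm2, Mcm3 and Mcm4 changed by 0.98, 1.31 and 0.51 in SPF and by 0.81, 1.46 and 0.69 in GF skin, all called as rises. Mcm4 lost both calls on library totals, at -0.06 (adjusted p = 0.54) in SPF and 0.18 (adjusted p = 0.099) in GF skin.

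Since the helicase holds 1 copy of each of its 6 subunits, the balance of their transcripts was compared per length, as the share of each gene in the summed deposited FPKM of the 6, a share that does not depend on library scaling. Mcm5 made up 13.7% ± 0.481 (SD, n = 3) of the sum with ethanol and 28.3% ± 1.28 with MC903 in SPF skin. In GF skin its share was 14.8% ± 0.250 and 21.1% ± 0.720. Thus the Mcm5 share was higher in each MC903 library than in each ethanol library, and in SPF more than in GF MC903 libraries. The share of Mcm6 was 23.9% ± 0.429 with ethanol and 15.9% ± 0.347 with MC903 in SPF skin, and 23.7% ± 0.638 and 18.1% ± 0.268 in GF skin, lower in every MC903 library. Mcm4 had 13.8% ± 1.06 and 9.22% ± 0.756 in SPF, and 12.6% ± 0.134 and 9.17% ± 0.799 in GF skin. Mcm7 had 23.4% ± 2.26 and 20.1% ± 1.49 in SPF skin and 22.9% ± 0.0894 and 24.7% ± 0.639 in GF skin, with every SPF MC903 library below every GF MC903 library. These shares are a description and were not tested.

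**Figure D2:**
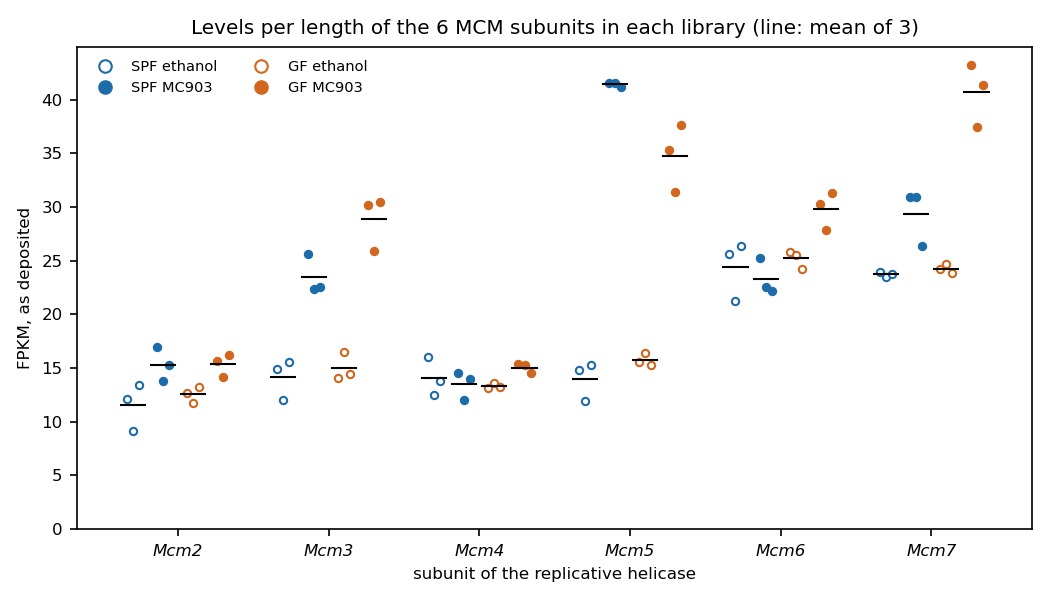
Deposited FPKM (vertical axis, from 0) of the 6 MCM genes in each of the 12 libraries (points), with the mean of 3 libraries as a line. Mean FPKM of Mcm5 was 14.0 in SPF ethanol, 41.4 in SPF MC903, 15.7 in GF ethanol and 34.8 in GF MC903 libraries; FPKM carries no TMM scaling, so Mcm4 and Mcm6 lie no higher with MC903 in SPF skin here, where their CPM rose.

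Of the 6 genes of helicase activation, 5 rose in SPF skin and 4 in GF skin, while on library totals 2 rose and 2 fell in SPF skin and 3 rose and 1 fell in GF skin. Mcm10, which acts when the helicase starts to move, was at 4.79, 4.62 and 5.90 CPM with ethanol and 12.9, 12.4 and 10.3 CPM with MC903 in SPF skin. Mcm10 in GF skin was at 3.95, 4.77 and 4.89 CPM with ethanol and 16.4, 6.86 and 19.7 CPM with MC903. It rose in both, by 1.22 (SE 0.29, adjusted p = 0.0021) in SPF and 1.66 (SE 0.29, adjusted p = 0.00026) in GF skin, with GF MC903 4 well below the other GF MC903 libraries, and the SPF rise missed the threshold on library totals at 0.64 (adjusted p = 0.057). Gins4, the GINS subunit with the highest CPM, was at 18.3, 17 and 15.6 CPM with ethanol and 21.5, 24.4 and 20.1 CPM with MC903 in SPF skin. GF skin had Gins4 at 16.0, 16.9 and 15.7 CPM with ethanol and 25.0, 25.7 and 26.6 CPM with MC903. Groups did not overlap, and the changes were 0.37 (SE 0.09, adjusted p = 0.0018) in SPF and 0.67 (SE 0.09, adjusted p = 2.2e-05) in GF skin, whereas on library totals Gins4 was lower in SPF skin, at -0.20 (adjusted p = 0.041), and not called in GF skin, at 0.16 (adjusted p = 0.10). Gins3 was at 3.25, 2.85 and 3.36 CPM with ethanol and 4.87, 4.60 and 5.07 CPM with MC903 in SPF skin. Gins3 in GF skin was at 3.31, 4.06 and 2.86 CPM with ethanol and 4.43, 4.09 and 3.7 CPM with MC903. Its SPF groups stood apart and its GF groups overlapped, with changes of 0.62 (SE 0.15, adjusted p = 0.0023) in SPF and 0.26 (SE 0.15, adjusted p = 0.14) in GF skin, and values on library totals of 0.04 (adjusted p = 0.80) and -0.25 (adjusted p = 0.15). Without GF ethanol 4 the GF change passed, at 0.42 (adjusted p = 0.030), and with all libraries the difference between the responses did not (adjusted p = 0.27). Gins2 was the only member called lower after MC903 with TMM scaling, at 7.81, 7.59 and 10.3 CPM with ethanol and 6.89, 4.68 and 7.47 CPM with MC903 in SPF skin. GF skin had Gins2 at 9.52, 8.72 and 8.88 CPM with ethanol and 8.01, 8.31 and 8.34 CPM with MC903. In both housings each MC903 library lay below each ethanol library, with changes of -0.44 (SE 0.16, adjusted p = 0.028) in SPF and -0.14 (SE 0.16, adjusted p = 0.46) in GF skin. The SPF change no longer passed without SPF ethanol 3, at -0.28 (adjusted p = 0.14), or without SPF MC903 2, at -0.26 (adjusted p = 0.11), and on library totals the GF change passed too, at -0.65 (adjusted p = 0.0042). Exons of Gse1, on the other strand, cover 67.3% of the exon length of Gins2 (chr8:120581266-120589075), and Gse1 had means of 118 and 114 CPM in SPF skin, so the Gins2 value is uncertain where reads of the pair were counted together. Cdc45, the helicase cofactor, changed by 0.99 and 1.14, and Gins1 by 1.09 and 1.39, rises that passed in both.

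Of the 8 polymerase and primase genes, 4 rose in SPF and 7 in GF skin with TMM scaling, while on library totals 1 rose and 5 fell in SPF skin and 2 rose and 1 fell in GF skin. The catalytic subunits of polymerases alpha, delta and epsilon did not pass in SPF skin with TMM scaling, and all 3 were called lower there on library totals, Pola1 at -0.61 (adjusted p = 0.0018), Pold1 at -0.66 (adjusted p = 0.00010) and Pole at -0.72 (adjusted p = 0.00017). On that scaling the median tested gene was itself at -0.68 in SPF skin, and 10106 of 16466 genes were called lower, so these values lie near the typical gene. Removing a trend with gene length instead turned all 3 SPF changes positive, to 0.44 for Pola1, 0.11 for Pold1 and 0.47 for Pole. Pole was called higher in that setting, so its SPF result depends on the processing. Pola1, the catalytic subunit of polymerase alpha, was at 12.6, 11.9 and 17.4 CPM with ethanol and 14.8, 11.8 and 14.2 CPM with MC903 in SPF skin. Pola1 in GF skin was at 14.5, 15.5 and 13.1 CPM with ethanol and 14.1, 12.7 and 13.4 CPM with MC903. All 4 groups overlapped, and the changes were -0.04 (SE 0.14, adjusted p = 0.82) in SPF and -0.10 (SE 0.14, adjusted p = 0.55) in GF skin, the GF one -0.61 (adjusted p = 0.0021) on library totals. Pola2, its B subunit, was at 25.7, 23.1 and 20.8 CPM with ethanol and 26.6, 23.2 and 19.4 CPM with MC903 in SPF skin. GF skin had Pola2 at 21.1, 21.5 and 19.2 CPM with ethanol and 32.4, 29.4 and 30.9 CPM with MC903. Only the GF groups stood apart, with changes of 0.00 (SE 0.11, adjusted p = 0.97) in SPF and 0.59 (SE 0.11, adjusted p = 0.00053) in GF skin. On library totals Pola2 was lower in SPF skin, at -0.58 (adjusted p = 0.00048), and not called in GF skin, at 0.07 (adjusted p = 0.57). Pold1, the catalytic subunit of polymerase delta, was at 32.6, 27.1 and 35.0 CPM with ethanol and 32.4, 29.9 and 26.9 CPM with MC903 in SPF skin. Pold1 in GF skin was at 33.0, 31.5 and 32.4 CPM with ethanol and 41.7, 35.8 and 40.5 CPM with MC903. Again the SPF groups overlapped and the GF MC903 libraries were the highest, with changes of -0.08 (SE 0.10, adjusted p = 0.47) in SPF and 0.28 (SE 0.10, adjusted p = 0.026) in GF skin, the latter -0.23 on library totals and no longer past the test without GF ethanol 4 or 5 or without GF MC903 1 or 5 (lowest at 0.24 (adjusted p = 0.087)). Pole, the catalytic subunit of polymerase epsilon, was at 23.1, 18.2 and 22.5 CPM with ethanol and 21.5, 17.5 and 19.0 CPM with MC903 in SPF skin. GF skin had Pole at 14.5, 13.7 and 16.7 CPM with ethanol and 18.7, 20.1 and 20.8 CPM with MC903. GF ethanol libraries were lower than all others of this gene, and the changes were -0.14 (SE 0.11, adjusted p = 0.28) in SPF and 0.41 (SE 0.11, adjusted p = 0.0063) in GF skin, the latter -0.10 on library totals. Pold2, an accessory subunit of polymerase delta, was at 33.7, 32.0 and 35.3 CPM with ethanol and 62.7, 68.1 and 60.1 CPM with MC903 in SPF skin. Pold2 in GF skin was at 36.8, 39.2 and 39.2 CPM with ethanol and 65.5, 61.0 and 65.3 CPM with MC903. Its treatments did not overlap, with changes of 0.92 (SE 0.07, adjusted p = 1.3e-07) in SPF and 0.74 (SE 0.07, adjusted p = 1.4e-06) in GF skin. Pole2 rose by 0.75 and 0.82 (SPF rise lost on library totals, at 0.17), and the primase genes Prim1 and Prim2 by 0.34 and 0.47 in SPF and 0.44 and 0.67 in GF skin. On library totals Prim1 was at -0.24 and -0.07, called lower in SPF skin, and Prim2 at -0.11 and 0.16, called in neither.

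Pcna, the sliding clamp, had the highest CPM of the members over all groups, although Mcm5 exceeded it in SPF MC903 libraries, and the highest mean FPKM in each group. It was at 78.0, 73.1 and 82.6 CPM with ethanol and 135, 140.0 and 124 CPM with MC903 in SPF skin. GF skin had Pcna at 87.3, 97.6 and 83.8 CPM with ethanol and 162, 155 and 155 CPM with MC903. Each MC903 library exceeded each ethanol library, with changes of 0.77 (SE 0.07, adjusted p = 9.1e-07) in SPF and 0.81 (SE 0.07, adjusted p = 8.9e-07) in GF skin. The clamp loader subunits were uneven, and of the 8 genes of the clamp, loader and RPA 1 rose and 1 fell in SPF skin and 3 rose and 1 fell in GF skin on library totals. Rfc2 was at 29.9, 28.0 and 29.8 CPM with ethanol and 49.4, 50.7 and 41.8 CPM with MC903 in SPF skin. Rfc2 in GF skin was at 35.4, 34.3 and 32.2 CPM with ethanol and 71.7, 64.5 and 68.5 CPM with MC903. Its GF MC903 libraries were above all others, with changes of 0.69 (SE 0.08, adjusted p = 7.0e-06) in SPF and 1.01 (SE 0.08, adjusted p = 4.2e-07) in GF skin, the SPF one 0.12 (adjusted p = 0.21) on library totals. Rfc3 was at 23.5, 21.1 and 19.3 CPM with ethanol and 25.6, 26.4 and 21.7 CPM with MC903 in SPF skin. GF skin had Rfc3 at 19.97, 23.6 and 19.0 CPM with ethanol and 34.6, 33.6 and 35.9 CPM with MC903. Its SPF groups overlapped and its GF groups did not, with changes of 0.21 (SE 0.11, adjusted p = 0.095) in SPF and 0.74 (SE 0.11, adjusted p = 4.9e-05) in GF skin. The SPF change passed without SPF ethanol 1, SPF MC903 3 or GF ethanol 4, as 0.29 (adjusted p = 0.029) without SPF MC903 3. On library totals Rfc3 was lower in SPF skin, at -0.37 (adjusted p = 0.0047), and the GF rise missed the threshold, at 0.23 (adjusted p = 0.059). Rfc1, the large subunit, was at 51.7, 48.3 and 59.1 CPM with ethanol and 72.9, 66.4 and 66.3 CPM with MC903 in SPF skin. Rfc1 in GF skin was at 53.2, 51.9 and 51.3 CPM with ethanol and 28.0, 61.2 and 27.2 CPM with MC903. Its SPF MC903 libraries were above its SPF ethanol libraries, but with MC903 in GF skin values were split, GF MC903 4 above the ethanol libraries and the other two far below them, and the changes of 0.37 (SE 0.24, adjusted p = 0.18) in SPF and -0.42 (SE 0.24, adjusted p = 0.13) in GF skin did not pass. Without GF MC903 4 the GF change was -0.91 (adjusted p = 4.4e-06) and the SPF change 0.37 (adjusted p = 0.0010), past the test in both, and on library totals the GF change was -0.94 (adjusted p = 0.0035) with all libraries. Rfc4 and Rfc5 rose, by 0.46 and 0.58 in SPF and 0.63 and 0.44 in GF skin. On library totals all 4 of these rises were lost, Rfc4 at -0.12 (adjusted p = 0.35) and 0.12 (adjusted p = 0.34) and Rfc5 at 0.00 (adjusted p = 0.99) and -0.08 (adjusted p = 0.43). Exons of other genes on the opposite strand share 15.1% of the exon length of Rfc2 (Lat2), 12.7% of Rfc4 (Eif4a2) and 10.7% of Rfc5 (Wsb2). Wsb2 itself changed by 1.02 in SPF and 0.41 in GF skin. With MC903 it was lower in GF than in SPF skin, by -0.46 (adjusted p = 0.00012 by the edgeR test). Lat2 and Eif4a2 differed there by 0.54 and 0.05, neither called. The part of these partners in the values of the members was not tested.

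The RPA genes parted from each other. Rpa2, the middle subunit, was at 21.3, 23.8 and 19.9 CPM with ethanol and 34.3, 34.4 and 27.5 CPM with MC903 in SPF skin. GF skin had Rpa2 at 27.7, 27.4 and 23.2 CPM with ethanol and 57.1, 49.9 and 56.9 CPM with MC903. The GF MC903 libraries were the highest, and the changes were 0.57 (SE 0.11, adjusted p = 0.00048) in SPF and 1.07 (SE 0.11, adjusted p = 3.0e-06) in GF skin, the SPF one -0.01 (adjusted p = 0.94) on library totals. Rpa1, the large subunit, was at 42.4, 62.2 and 68.0 CPM with ethanol and 32.2, 68.5 and 63.7 CPM with MC903 in SPF skin. Rpa1 in GF skin was at 71.1, 68.3 and 38.3 CPM with ethanol and 30.4, 78.6 and 29.9 CPM with MC903. It took values of 29.9 to 42.4 CPM in 5 libraries and 62.2 to 78.6 CPM in the other 7, each level present with and without MC903, and the changes of -0.07 (SE 0.39, adjusted p = 0.88) in SPF and -0.36 (SE 0.39, adjusted p = 0.43) in GF skin did not pass. Without GF MC903 4 the GF change was -0.98 (adjusted p = 0.023). Low libraries of Rfc1 (GF MC903 1 and 5) were also low for Rpa1, where SPF ethanol 1, SPF MC903 1 and GF ethanol 5 were low for Rpa1 only.

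Both genes of Okazaki fragment joining rose with TMM scaling, and on library totals 1 rose and 0 fell in SPF skin and 2 rose and 0 fell in GF skin. Fen1, the flap nuclease, was at 23.0, 22.0 and 21.0 CPM with ethanol and 50.9, 56.2 and 44.4 CPM with MC903 in SPF skin. GF skin had Fen1 at 23.2, 29.9 and 23.8 CPM with ethanol and 60.7, 59.3 and 60.6 CPM with MC903. Lig1, the ligase that seals nicks, was at 38.9, 34.0 and 41.3 CPM with ethanol and 72.5, 65.2 and 51.9 CPM with MC903 in SPF skin. Lig1 in GF skin was at 43.9, 48.6 and 43.8 CPM with ethanol and 111, 100.1 and 106 CPM with MC903. Groups did not overlap for either. Fen1 changed by 1.20 (SE 0.11, adjusted p = 5.2e-07) in SPF and 1.23 (SE 0.11, adjusted p = 6.5e-07) in GF skin, and an annotated transcript on the other strand, Gm10143, covers 78.8% of its exon length. For Lig1 the changes were 0.73 (SE 0.11, adjusted p = 6.9e-05) in SPF and 1.21 (SE 0.11, adjusted p = 1.2e-06) in GF skin, the SPF rise being lost on library totals at 0.15 (adjusted p = 0.22), and its GF MC903 libraries were all higher than its SPF MC903 libraries.

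The supply of deoxynucleotides showed some of the largest rises, and all 4 genes rose in both housings under either scaling. Rrm2 (chr12:24708254-24714146), the regulated subunit of ribonucleotide reductase, was at 14.6, 12 and 16.6 CPM with ethanol and 66.1, 48.0 and 45.9 CPM with MC903 in SPF skin. GF skin had Rrm2 at 16.6, 16.8 and 13.5 CPM with ethanol and 55.6, 53.4 and 54.0 CPM with MC903. That is a 3.7-fold rise in SPF and a 3.48-fold rise in GF skin, with changes of 1.89 (SE 0.15, adjusted p = 2.2e-07) in SPF and 1.80 (SE 0.15, adjusted p = 5.5e-07) in GF skin. Rrm1, the large subunit, was at 60.7, 57.7 and 67.0 CPM with ethanol and 128, 103 and 107 CPM with MC903 in SPF skin. Rrm1 in GF skin was at 60.7, 68.0 and 58.3 CPM with ethanol and 129, 108 and 116 CPM with MC903. It rose less, by 0.87 (SE 0.10, adjusted p = 5.2e-06) in SPF and 0.92 (SE 0.10, adjusted p = 4.6e-06) in GF skin. Tk1, the thymidine kinase of cycling cells, was at 19.6, 16.6 and 23.6 CPM with ethanol and 63.8, 59.1 and 50.6 CPM with MC903 in SPF skin. GF skin had Tk1 at 30.0, 31.4 and 27.4 CPM with ethanol and 85.5, 73.9 and 79.4 CPM with MC903. All 4 groups were apart, GF above SPF in both treatments, with changes of 1.54 (SE 0.13, adjusted p = 2.5e-07) in SPF and 1.43 (SE 0.13, adjusted p = 7.3e-07) in GF skin. Tyms, thymidylate synthase, rose by 1.08 and 1.15.

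The 3 genes that restore chromatin behind the fork rose in both housings with TMM scaling, while on library totals 1 rose and 0 fell in SPF skin and 3 rose and 0 fell in GF skin. Uhrf1 (chr17:56303337-56323486), which guides the maintenance of DNA methylation, was at 42.8, 37.3 and 41.9 CPM with ethanol and 72.8, 59.7 and 59.2 CPM with MC903 in SPF skin. Uhrf1 in GF skin was at 38.7, 41.8 and 37.7 CPM with ethanol and 88.2, 79.8 and 89.1 CPM with MC903. The GF MC903 libraries were the highest, and the changes were 0.65 (SE 0.09, adjusted p = 3.4e-05) in SPF and 1.12 (SE 0.09, adjusted p = 4.6e-07) in GF skin, the SPF rise being lost on library totals at 0.08 (adjusted p = 0.48). Chaf1a, the large subunit of chromatin assembly factor 1, was at 20.3, 19.8 and 21.3 CPM with ethanol and 39.7, 39.3 and 35.1 CPM with MC903 in SPF skin. GF skin had Chaf1a at 20.4, 23.0 and 19.1 CPM with ethanol and 39.7, 41.4 and 42.7 CPM with MC903. The treatments did not overlap, with changes of 0.89 (SE 0.08, adjusted p = 6.6e-07) in SPF and 0.99 (SE 0.08, adjusted p = 4.7e-07) in GF skin. Exons of Ubxn6 on the other strand share 52.5% of its exon length, and Ubxn6 itself changed by 0.44 and 0.44. Chaf1b, the middle subunit, was at 14.0, 14.2 and 14.8 CPM with ethanol and 20.8, 19.0 and 16.9 CPM with MC903 in SPF skin. Chaf1b in GF skin was at 11.3, 16.3 and 14.1 CPM with ethanol and 29.2, 25.0 and 28.6 CPM with MC903. It rose more weakly in SPF skin, by 0.40 (SE 0.12, adjusted p = 0.011) in SPF and 0.99 (SE 0.12, adjusted p = 1.6e-05) in GF skin, and the SPF change was -0.18 (adjusted p = 0.18) on library totals.

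**Figure D3:**
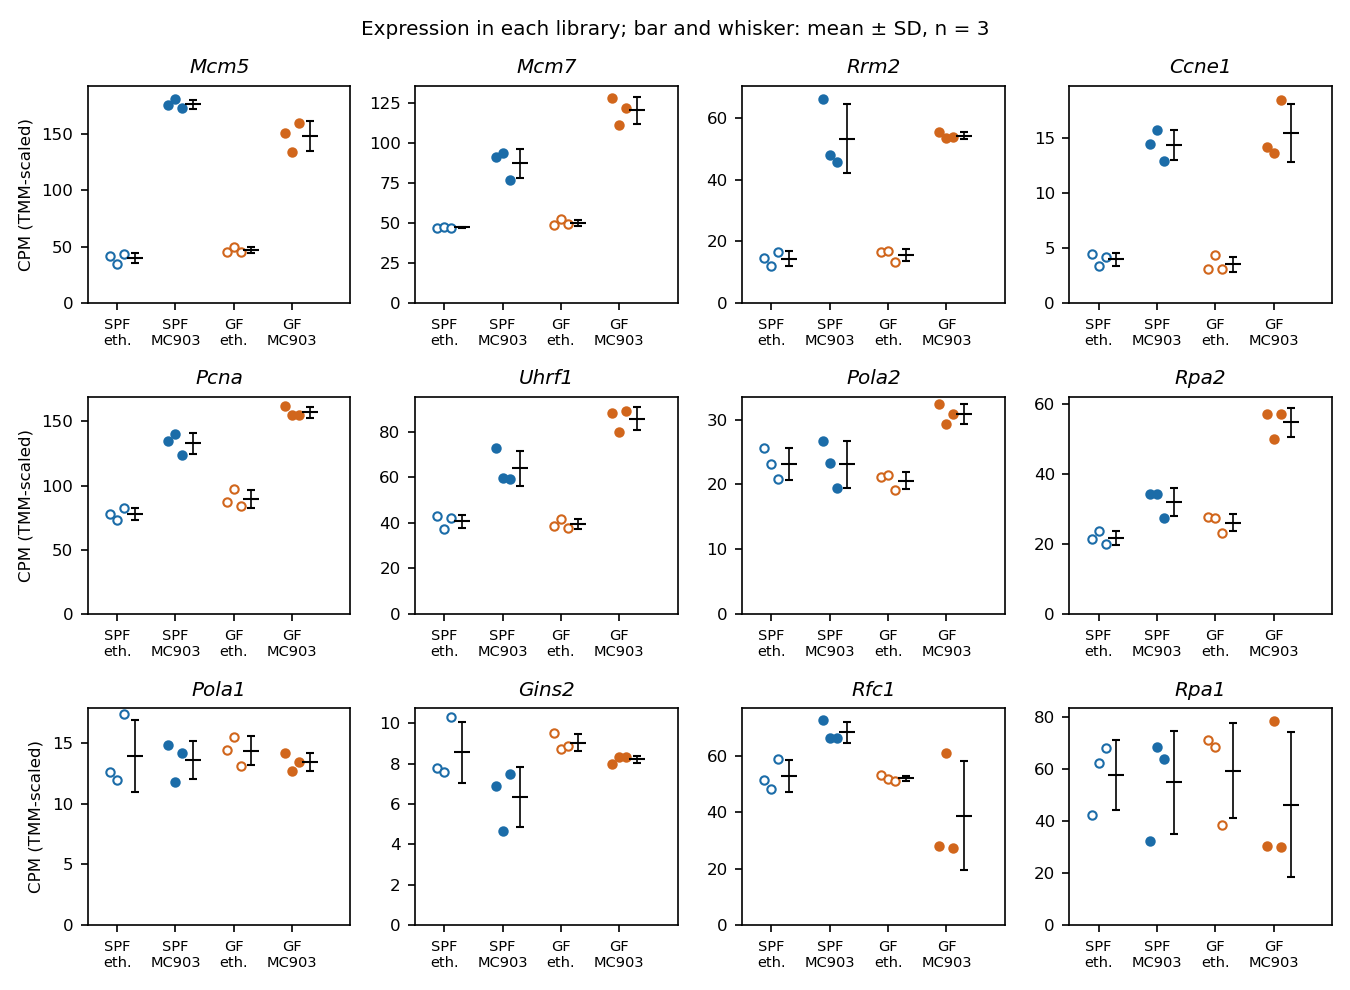
CPM in each library (points; TMM-scaled, vertical axes from 0) of 12 members in the 4 groups, with the mean and SD of 3 libraries beside them. Mcm5, Mcm7, Rrm2, Ccne1, Pcna and Uhrf1 show no overlap between ethanol and MC903, Pola1 overlaps in all groups, and Rfc1 and Rpa1 split within groups; on library totals alone Rpa2 in SPF skin turns from a rise to -0.01.

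Other genes of the same processes were set beside the members, with log2 changes in SPF and GF skin in that order. Of 33 further replication and fork genes, 22 rose and 7 fell in SPF skin (median 0.53), and 23 rose and 5 fell in GF skin (median 0.58). The largest mean rises were of Gmnn (2.08 and 2.07), whose product geminin inhibits CDT1, Ticrr (1.24 and 1.62), needed to start origins, and Dbf4 (2.02 in SPF skin), the activator of CDC7, whose GF change of 0.65 (SE 0.46, adjusted p = 0.22) did not pass. Dbf4 was at 7.90, 9.42 and 7.89 CPM with ethanol and 6.5, 27.8 and 5.30 CPM with MC903 in GF skin, GF MC903 4 alone lying above the ethanol libraries, and without that library the GF change was -0.51 (adjusted p = 0.0034). Rif1 (-1.10 and -1.23), a factor in replication timing, Mcm9 (-1.15 and -0.99) and Mcm8 (-0.61 and -0.61), relatives of the MCM2-7 genes that act in recombination, fell in both. Dna2 (-0.44), Topbp1 (-0.30), Atad5 (-0.56) and Orc5 (-0.29) fell in SPF skin, and Orc3 (-0.36) and Orc4 (-0.26) fell in GF skin. The call of Topbp1 was lost without SPF ethanol 3, SPF MC903 2 or SPF MC903 3 (-0.24 (adjusted p = 0.089) at the highest p), and that of Orc4 in 7 of the 12 fits that left out 1 library, with the highest p without GF MC903 5, -0.19 (adjusted p = 0.16). On library totals 6 rose and 13 fell in SPF skin and 14 rose and 9 fell in GF skin.

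Of 10 other genes of deoxynucleotide metabolism, 6 rose and 2 fell in SPF skin (median 0.46), and 6 rose and 2 fell in GF skin (median 0.66). Samhd1 (2.22 and 1.53), whose enzyme breaks deoxynucleotides down, rose most, ahead of Shmt1 (0.97 and 1.13) and Dtymk (0.94 and 1.10). Rrm2b (-1.96 and -1.83), the reductase subunit used outside S phase, and Tk2 (-0.86 and -0.65), the mitochondrial thymidine kinase, fell, while Rrm2 and Tk1 rose. On library totals 4 rose and 5 fell in SPF skin and 5 rose and 5 fell in GF skin. Of 31 cyclins, kinases, E2F and retinoblastoma genes and inhibitors, 30 were tested (Cdkn2a was not), and 17 rose and 6 fell in SPF skin (median 0.42), and 19 rose and 6 fell in GF skin (median 0.44). E2f7 (4.64 and 3.73) and E2f8 (1.88 and 1.36), which encode repressive E2Fs, and Ccna2 (1.92 and 2.08), the S phase cyclin, rose most. E2f7 was at 3.44, 2.45 and 3.41 CPM with ethanol and 70.0, 83.8 and 79.3 CPM with MC903 in SPF skin. GF skin had E2f7 at 3.57, 3.55 and 2.60 CPM with ethanol and 42.2, 39.2 and 47.5 CPM with MC903. The genes that fell in both were Tfdp2 (-2.17 and -0.99), an E2F partner, Ccnd2 (-1.39 and -1.5), the retinoblastoma family genes Rb1 (-0.77 and -0.59) and Rbl2 (-1.38 and -1.08), and the inhibitors Cdkn1b (-0.55 and -0.29) and Cdkn1c (-0.49 and -0.59). The GF call of Cdkn1b was lost without GF ethanol 1 or 4 or GF MC903 1 or 5 (-0.22 (adjusted p = 0.14) at the highest p). On library totals 10 rose and 13 fell in SPF skin and 9 rose and 13 fell in GF skin.

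Of 15 histone chaperone and chromatin replication genes, 9 rose and 1 fell in SPF skin (median 0.47), and 11 rose and 0 fell in GF skin (median 0.57). Asf1b (1.42 and 1.54), Nasp (1.17 and 1.21) and Ssrp1 (1.08 and 0.92), which carry or hand on histones, rose most. Wdr76 fell in SPF skin (-0.71), with a GF change of -0.15 (SE 0.13, adjusted p = 0.29), and Dnmt1, the maintenance methyltransferase that UHRF1 recruits, did not pass, with 0.14 (SE 0.11, adjusted p = 0.23) in SPF and 0.19 (SE 0.11, adjusted p = 0.14) in GF skin. On library totals Dnmt1 was lower in both, at -0.43 (adjusted p = 0.0037) and -0.33 (adjusted p = 0.019), and of the 15 genes 4 rose and 6 fell in SPF skin and 5 rose and 4 fell in GF skin. All 25 mitosis and spindle genes rose in both housings with TMM scaling, with medians of 1.86 and 2.02, at least 2-fold for 22 and 23 of them. Ube2c (3.28 and 2.92), Plk1 (3.02 and 2.86) and Birc5 (2.48 and 2.83) led, and Ttk (0.56 and 0.47) and Kif23 (0.89 and 0.91) came last. The medians in SPF and GF skin thus stood at 0.67 and 0.82 for the members and higher for the mitosis genes. On library totals they were 0.10 and 0.31 for the members, 1.28 and 1.51 for the mitosis genes, -0.05 and 0.07 for the other replication genes, -0.11 and 0.15 for deoxynucleotide metabolism, -0.15 and -0.07 for the cyclin and E2F list and -0.10 and 0.06 for the chromatin list, with 23 and 24 mitosis genes still called higher. Ttk was then at -0.01 and -0.04, and Nusap1, which lost its SPF call, at 0.37 (adjusted p = 0.089).

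**Figure D4:**
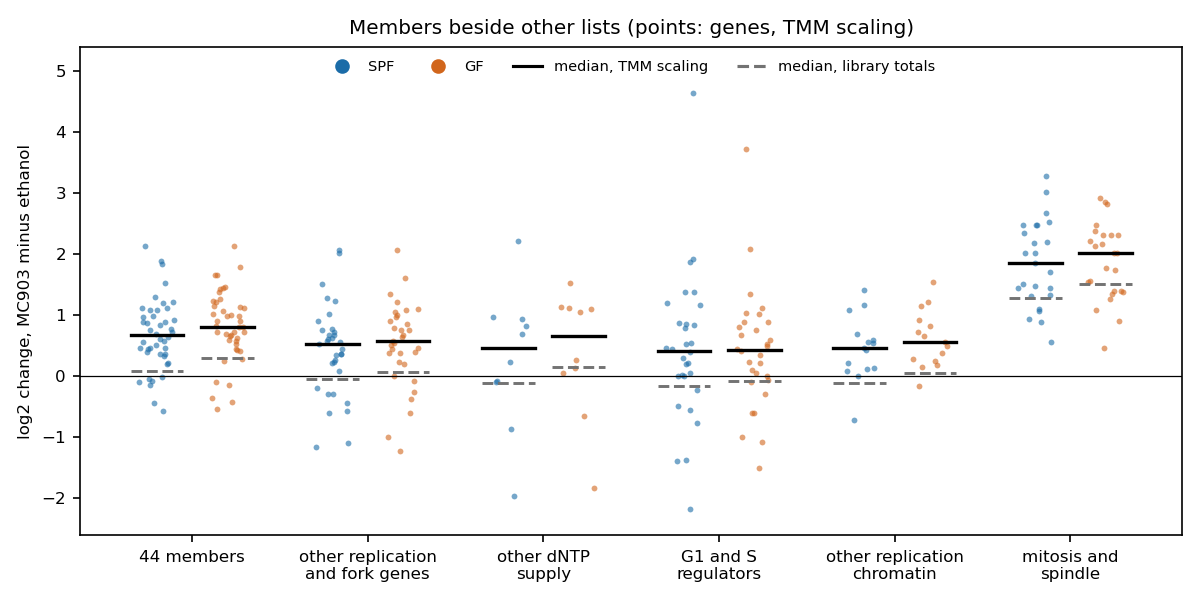
Log2 change with MC903 (vertical axis, TMM scaling) of single genes (points) in SPF (blue) and GF (orange) skin for the 44 members and 5 other lists, with the median of each list under TMM scaling (solid line) and library totals (dashed line). The mitosis list lies highest under both; on library totals the medians of the other replication, deoxynucleotide, regulator and chromatin lists fall below 0 in SPF skin, and that of the regulators also in GF skin.

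The difference between the responses (GF minus SPF) was tested as an interaction, which asks whether MC903 moved a gene more in one housing than in the other. It passed for 7 members on the higher side (all tested genes 7.75%) and 1 on the lower side (9.26%). The response in GF skin was larger for Pola2 by 0.59 (SE 0.16, adjusted p = 0.025), for Chaf1b by 0.59 (SE 0.17, adjusted p = 0.038), for Pole by 0.55 (SE 0.16, adjusted p = 0.034) and for Rfc3 by 0.53 (SE 0.15, adjusted p = 0.030). It was also larger for Rpa2 by 0.50 (SE 0.15, adjusted p = 0.045), for Uhrf1 by 0.47 (SE 0.13, adjusted p = 0.028) and for Mcm7 by 0.38 (SE 0.11, adjusted p = 0.035). The response of Mcm5 was smaller in GF skin, by -0.47 (SE 0.12, adjusted p = 0.023). Over the 44 members the median difference was 0.16, with 33 above and 11 below 0 (48.4% of all tested genes were below), where the median tested gene was at 0.02. Each of these calls depended on single libraries: leaving out SPF ethanol 1 left 0 called higher, leaving out SPF MC903 3, GF ethanol 1, GF ethanol 5, GF MC903 1 or GF MC903 5 left 1, and leaving out SPF MC903 1 left 8. Mcm5 lost its call without GF ethanol 4 or GF MC903 4, and also with the replicate number as a block, with adjusted p-values of 0.056, 0.052 and 0.057.

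Between housings with ethanol, the replication genes differed little. Tk1 was higher in GF skin, by 0.57 (SE 0.12, adjusted p = 0.0089), and Orc1 and Pole were lower, by -0.57 (SE 0.19, adjusted p = 0.047) and -0.51 (SE 0.11, adjusted p = 0.0093), so that 1 of 44 was higher (background 11.6%) and 2 were lower (background 10.3%). All 3 calls were lost once a trend with gene length was removed. Libraries did not overlap for 10 members higher and 4 lower in GF ethanol (background 21.8% and 22.1%). With MC903, 16 members were higher in GF than in SPF skin (background 20.8%) and 3 were lower (background 20.9%), with a median of 0.22. The largest were Rpa2 at 0.77 (SE 0.11, adjusted p = 0.00017), Lig1 at 0.74 (SE 0.11, adjusted p = 0.00025) and Chaf1b at 0.55 (SE 0.12, adjusted p = 0.0037). Next came Rfc2 at 0.53 (SE 0.08, adjusted p = 0.00030) and Rfc3 at 0.50 (SE 0.11, adjusted p = 0.0025), each with all GF MC903 libraries above all SPF MC903 libraries. Mcm7, Tk1, E2f1, Uhrf1, Pola2, Pold1, Mcm6, Tyms, Pole2, Mcm3 and Pcna followed, from 0.46 to 0.24. Rfc1 at -0.82 (SE 0.24, adjusted p = 0.016), Rfc5 at -0.26 (SE 0.08, adjusted p = 0.019) and Mcm5 at -0.25 (SE 0.09, adjusted p = 0.035) were lower. Without GF MC903 1 or without SPF MC903 1, 1 member stayed lower, as without GF MC903 4, and 2 did without GF MC903 5, SPF MC903 2 or SPF MC903 3. Groups did not overlap for 20 members higher and 4 lower (background 25.4% and 25.2%). Under every setting tried 10 of the 16 stayed higher: Chaf1b, Lig1, Mcm6, Mcm7, Pola2, Pold1, Rfc2, Rfc3, Rpa2 and Uhrf1. This comparison shares its MC903 libraries with the test of the difference between responses. Among the 25 mitosis genes, 2 were higher and 2 lower in GF MC903 skin, with a median of 0.02. The summed T cell markers, 25.1 to 29.0 CPM in GF and 13.6 to 15.3 CPM in SPF MC903 libraries, and the hair matrix markers, 1226 to 1249 and 2405 to 3878 CPM, moved with this comparison. So did the sums of the neutrophil markers, 16.2 to 19.5 CPM in GF and 11.3 to 13.7 in SPF, the dendritic and Langerhans cell markers, 123 to 136 CPM in GF and 101 to 107 in SPF, and the suprabasal keratinocyte markers, 37726 to 41327 CPM in GF and 26151 to 33773 in SPF. Sebocyte sums were 2280.4 to 2675 CPM in GF and 1836 to 2234 in SPF and skeletal muscle sums 991 to 1011 CPM in GF and 701 to 724 in SPF. None of these 7 sums overlapped between the groups, and their part in the comparison was not tested. The hair matrix and suprabasal sums do not stand for their whole lists. Of 9 hair matrix markers tested, 3 were called higher and 2 lower in GF MC903 skin, with a median of 0.26. Of the 6 suprabasal markers, 2 were called higher and 2 lower. Some other sums also rest on few calls, all of them higher in GF skin. These were 1 of 5 neutrophil markers tested, 2 of 6 dendritic and Langerhans cell markers and 2 of 5 sebocyte markers. T cell markers had 5 of 6 tested called higher, and muscle markers 4 of 5.

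**Figure D5:**
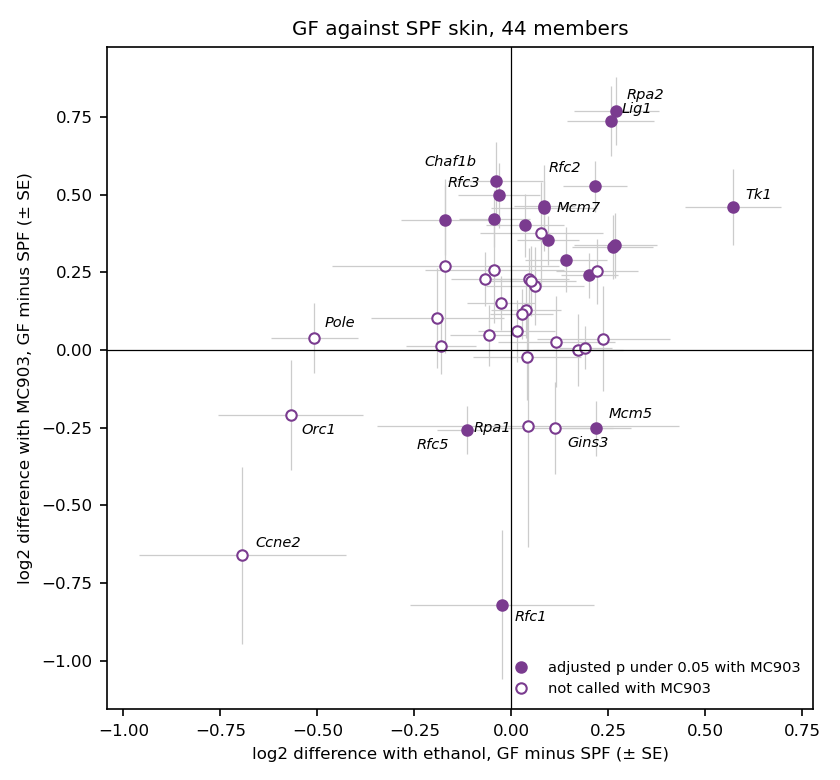
Log2 difference between GF and SPF skin for the 44 members, with ethanol (horizontal axis) and with MC903 (vertical axis), bars ± SE; filled points passed the test with MC903. Most points lie above 0 on the vertical axis, 16 of them called, while Rfc1, Rfc5 and Mcm5 are called below 0; scaling by library totals turned no sign of these members with MC903 and none of the 3 calls with ethanol.

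Within groups, single libraries tended to be low or high for many members at once. SPF ethanol 2 was the lowest of its group for 32 of 44 members, SPF MC903 3 for 34, GF MC903 4 for 31 and GF ethanol 5 for 27, and GF ethanol 4 was the highest of its group for 30. The same count was not made over all tested genes, so whether this is particular to the members was not tested. The members' summed CPM in these libraries was 1002 in SPF ethanol 2, 1718 in SPF MC903 3, 2033 in GF MC903 4, 1076 in GF ethanol 5 and 1206 in GF ethanol 4. SPF MC903 3 was also the smallest library, with 36358294 counts, and GF MC903 4 and GF ethanol 5 carry the strain labels that end in 7 and 8. GF MC903 5, whose label ends in 9, was the highest of its group for 22 members and the lowest for 6. The part of depth or of the label in these values was not tested.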

How the data were processed

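Per the labels' protocols, total RNA of ear skin (RNeasy fibrous tissue kit) went into TruSeq libraries. For the reads, HISAT2 2.1.0, StringTie 1.3.4d, Trimmomatic, bcl2fastq 2.20.0 and the mm10 build are listed in the submitters' processing notes. Settings, gene annotation and strand handling are not stated there. Per the file headers, each gene has 1 estimated count and 1 FPKM per library, as made by the authors. The deposited estimated counts are whole numbers, so the rounding applied before the fits left them as they were. FPKM, also as deposited by the authors, served for levels per length, the MCM shares, the gene length implied by both columns and 1 alternative test.

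Samples were grouped by housing and treatment from the labels. In R 4.3.3, edgeR 4.0.16 was fitted once to all 12 libraries with a coefficient per group, after filterByExpr (minimum count 10, minimum total 15) left 16466 genes, 8066 not tested and 4221 of the 24532 at 0 everywhere. TMM scaling, the quasi-likelihood test and Benjamini-Hochberg adjustment over all tested genes at 0.05 gave every adjusted p, and each SE is the log2 change divided by the square root of F. The common dispersion was 0.0218. The 12 pairs of replicates within groups differed by a chi-square per degree of freedom of 17.5 to 44.7, so each library counted as 1 replicate. Alternatives were library totals, DESeq2 1.42.0 (size factors and Wald test), limma 3.58.1 (voom, and log2 FPKM with a pseudocount of 0.1), no filter, a length trend, a replicate block, separate fits of 2 groups and each library left out in turn. The fit was tested on simulated data with 200 changed genes.

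Gene coordinates and promoters are from RefSeq GRCm38.p6, and exon overlaps from GENCODE on GRCm38. Within each role, values in every library are given for the most abundant member, those with the largest and smallest mean response, those called in a difference or between housings (up to 8 a comparison), and those not called or lower. Of each other list the 3 highest and 2 lowest mean responses and the calls against the majority are named. The members, lists and tests were chosen with earlier results of these data known. Protein motifs were not analysed here. Depth of 36358294 to 48225425 counts covers counting error; the spread between libraries sets the SEs.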

Additional observations from a re-analysis of the deposited data

Results flagged for a closer look

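The response to MC903 differed between housings, by a test of the difference itself in edgeR, for 8 members. The log2 response of Pola2, the B subunit of polymerase alpha, was larger in GF skin by 0.59 (SE 0.16, adjusted p = 0.025), called in 8 of 12 fits that each left out 1 library. The SPF and GF responses were 0.00 and 0.59. For Chaf1b, of chromatin assembly factor 1, the difference was 0.59 (SE 0.17, adjusted p = 0.038), called in 3 of 12 fits that each left out 1 library. The SPF and GF responses were 0.40 and 0.99. For Pole, of polymerase epsilon, it was 0.55 (SE 0.16, adjusted p = 0.034), called in 4 of 12 fits that each left out 1 library. For Rfc3, a clamp loader subunit, it was 0.53 (SE 0.15, adjusted p = 0.030), called in 5 of 12 fits that each left out 1 library. For Rpa2 it was 0.50 (SE 0.15, adjusted p = 0.045), called in 4 of 12 fits that each left out 1 library. For Uhrf1 it was 0.47 (SE 0.13, adjusted p = 0.028), called in 4 of 12 fits that each left out 1 library. For Mcm7 it was 0.38 (SE 0.11, adjusted p = 0.035), called in 4 of 12 fits that each left out 1 library. Mcm5 alone had the smaller response in GF skin, by -0.47 (SE 0.12, adjusted p = 0.023), called in 10 of 12 fits that each left out 1 library. The SPF and GF responses were 2.14 and 1.67. Over all tested genes 7.75% were called higher and 9.26% lower in this comparison, where 7 and 1 of the 44 members were called. With 3 libraries in each group, single libraries were not tested as outliers.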

How the results depend on the processing

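Scaling by library totals moved the counts for both responses to MC903 but left each of the 8 calls in the difference and of the 3 and 19 calls between housings past the threshold. Without SPF ethanol 1, 7 of those 8 were lost, and without GF MC903 1, 7 of those 19. On library totals, members higher and lower with MC903 numbered 18 and 10 in SPF and 25 and 4 in GF skin, and with limma on log2(deposited FPKM + 0.1), which has no TMM scaling, 18 and 9 in SPF and 24 and 5 in GF skin. limma voom called 2 lower in SPF and 1 lower in GF skin, and removing a trend with gene length left 1 lower in GF skin. In the difference between the responses, DESeq2 size factors in edgeR left 4 higher. With ethanol, GF skin had 4 members higher by the DESeq2 Wald test, 2 with only the 2 groups compared and 0 with the length trend removed, and 1 lower without a filter on low counts or with the length trend removed. With the length trend removed all 3 ethanol calls of the main fit were lost, so the 1 lower there is neither Orc1 nor Pole. Leaving out each library in turn gave 34 to 36 higher and 0 to 2 lower in SPF and 37 to 38 higher and 0 to 2 lower in GF skin. It gave 0 to 8 higher and 0 to 1 lower for the difference, 1 to 2 higher and 1 to 2 lower with ethanol, and 12 to 18 higher and 1 to 3 lower with MC903. The labels do not pair the libraries, and deviations from group means of libraries with the same number correlated at 0.01, 0.07 and 0.14 in SPF and at 0.02, -0.02 and 0.0006 in GF skin, and of the ethanol libraries SPF 2, SPF 3 and GF 1 correlated best with the MC903 library of their own number. With the replicate number as a block, 34 rose and 1 fell in SPF, 38 rose in GF skin, and the difference was called for 5 higher and 0 lower. Log2 changes that took the opposite sign on library totals in SPF skin were Orc6 -0.13, Mcm4 -0.064, Mcm6 -0.11, Gins4 -0.20, Prim1 -0.24, Prim2 -0.11, Rfc1 -0.21, Rfc3 -0.37, Rfc4 -0.12, Rpa2 -0.0096, Chaf1b -0.18 and E2f1 -0.36, and in GF skin Gins3 -0.25, Prim1 -0.066, Pold1 -0.23, Pole -0.10 and Rfc5 -0.076. On log2 FPKM they were Orc6 -0.13, Mcm4 -0.058, Mcm6 -0.064, Gins4 -0.20, Prim1 -0.22, Prim2 -0.10, Rfc1 -0.20, Rfc3 -0.37, Rfc4 -0.12, Rpa2 -0.011, Chaf1b -0.18 and E2f1 -0.35 in SPF and Orc6 -0.0081, Gins3 -0.23, Prim1 -0.073, Pold1 -0.24, Pole -0.10 and Rfc5 -0.083 in GF skin. With the length trend removed they were Pola1 0.44, Pold1 0.11, Pole 0.47, Rfc3 -0.16 and Rpa1 0.040 in SPF, Pola1 0.31 in GF skin and Pcna -0.0088 between housings with MC903. Under DESeq2 size factors they were Pola1 0.0072 and Pola2 0.041, under the DESeq2 test Pola1 0.0069 and Pola2 0.042, and with voom Pola2 0.0019 or only the compared groups Pola2 0.024, all in SPF skin. Leaving out libraries moved the SPF change of Pola1 over -0.14 to 0.15, of Pola2 over -0.12 to 0.11 and of Rpa1 over -0.26 to 0.20. The cause of these changes was not tested beyond what each setting itself alters. With 3 libraries a group, a change that missed the threshold was not detectable at this spread, which does not show that it is absent.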
